A study of Mus musculus with 12 samples.

Results

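The 8 cholesterol synthesis genes Hmgcs1, Mvd, Idi1, Fdps, Fdft1, Sqle, Lss and Cyp51 were followed through the conversion of mouse fibroblasts to pluripotent cells. They were chosen by symbol from the 24098 genes of the deposited table, and all 8 were present. Of these, 7 reached 1 FPKM (fragments scaled to transcript length and to the number of mapped fragments, a level that can be compared between genes) in at least 1 library and 6 reached 10 FPKM. Mouse embryonic fibroblasts (MEFs) with GFP at Oct4 received the OSKM factors (Oct4, Sox2, Klf4, c-Myc) from pMXs retroviruses, and polyA RNA was sequenced from unsorted cells on day 0 (D0, labelled wild type) and day 3 (D3). On days 6 and 9 cells were sorted by Thy-1, a fibroblast surface protein, into D6T-, D6T+, D9T- and D9T+, and on days 12 and 16 by SSEA-1, a sugar epitope that pluripotent cells display, into D12S+, D12S-, D16S+ and D16S-. The study treats Thy-1- and SSEA-1+ cells as the successful route. Established iPSCs and mouse embryonic stem cells of the D3 line (mESCs) completed the 12 libraries. Each condition had 1 library, so there is no measured spread behind any difference and none was tested. The labels put MEFs in medium with fetal serum and infected cells, iPSCs and mESCs in a medium with serum replacement, while the methods of the study also list media with serum for the latter. If the labels hold, the medium and the reprogramming cannot be told apart in comparisons with D0.

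Cells make cholesterol from acetyl-CoA through mevalonate. HMG-CoA synthase (Hmgcs1) makes HMG-CoA, from which mevalonate is formed. Mevalonate is phosphorylated and then decarboxylated by Mvd to isopentenyl diphosphate, which Idi1 isomerises and Fdps condenses to farnesyl diphosphate. Fdft1 joins farnesyl diphosphate into squalene, the step that commits the pathway to sterols. Sqle oxidises squalene, Lss closes the sterol rings to give lanosterol, and Cyp51 removes a methyl group from lanosterol. The pathway is known for its common control: when sterols are scarce, Scap carries the transcription factor SREBP2 (Srebf2) from the endoplasmic reticulum to the Golgi, where proteases release it to act on genes of the pathway, and Insig proteins hold it back when sterols are plentiful.

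The sum of all FPKM was smallest in D16S+ (484968) and largest in D0 (648264). Relative depth, estimated from the value of 1 fragment in low genes, ranged from 0.969 times that of D0 in D9T+ to 1.56 times in D6T-. The labelled cells were checked with markers. The summed FPKM of 7 fibroblast markers was 7150 in D0, between 249 and 2670 in D3 and the sorted fractions up to day 12, and 34.1 in D16S+. That of 6 pluripotency markers was 2.11 in D0, 130 in D16S-, 4670 in D16S+, 3420 in iPSCs and 4020 in mESCs. Of 5 leukocyte markers, whose sum ranged from 11.1 in D0 to 136 in D16S-, the defining genes Ptprc and Emr1 stayed under 1 FPKM in every library and Itgam under 2, whereas Cd68 went from 9.05 FPKM in D0 to 115 in D16S- and Csf1r from 1.55 to 19.9. Their part in the results was not tested. The 3 endothelial markers summed to between 0.992 and 61.5 FPKM.

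How much of each gene could be measured was examined first, because the authors removed reads that mapped to more than 1 place. All sequence windows of 50 bases in each gene were searched in the whole mm9 genome. None of the windows of Mvd, Sqle or Lss occurred elsewhere, and 0.515% of those of Cyp51 did. For Fdft1 the share was 22.2%, all of it in the pseudogene Gm6781 at chr14:19363978-19365475. For Fdps it was 63.2%, and the pseudogene Gm3571 at chr10:93241371-93242495 alone held 50.6% of the windows. For Idi1 it was 84.6% of the transcript and 100.0% of the coding part, nearly all in the pseudogene Gm13502 at chr2:53553399-53555892. The locus given for Hmgcs1, chr13_random:114526-132436, was duplicated throughout: 100.0% of its 17862 windows occurred elsewhere. With windows of 100 bases the shares were 8.22% for Fdft1, 26.4% for Fdps, 80.3% for Idi1 and 100.0% for Hmgcs1. The effect of these copies on the levels was not tested, and the read length was not given in the sources used here. The members with the largest shares, Hmgcs1 and Idi1, had the lowest FPKM, at most 0.0923 and 3.09, but Fdps, with the next largest share, had the highest, from 124 to 257.

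The beginning of the Idi1 coding sequence is shown because it occurs letter for letter in both places. These 60 bases of the annotated transcript, an exonic coding stretch of chromosome 13, were also found on the minus strand of mm9 at chr2:53555779-53555838.
Idi1 coding start: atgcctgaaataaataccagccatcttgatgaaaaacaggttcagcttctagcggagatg

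**Figure D1:**
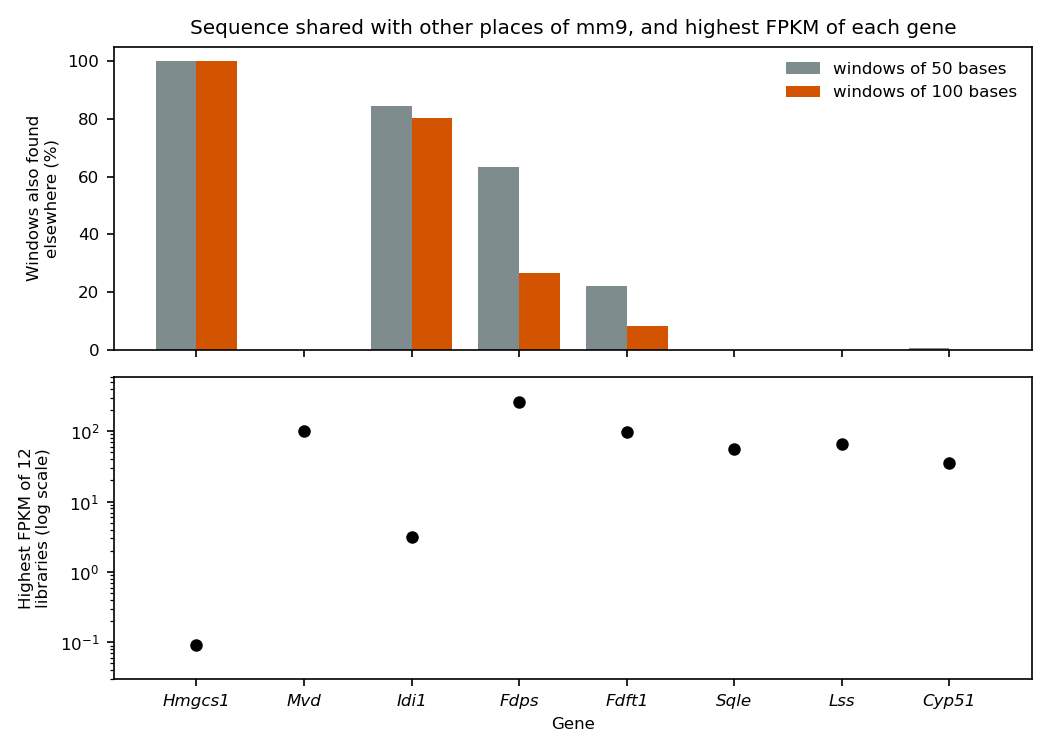
Upper panel, percent of the 50-base and 100-base windows of each gene that also occur elsewhere in mm9. Lower panel, highest FPKM of each gene over 12 libraries on a log axis. Hmgcs1 and Idi1 have the tallest bars and the lowest levels, while Mvd, Sqle and Lss have no shared window.

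Promoters from RefSeq (build GRCm38.p6, 250 bases before to 50 after the start) were matched by symbol for 5 of 8 members, Hmgcs1, Mvd, Idi1, Lss and Cyp51. Fdps, Fdft1 and Sqle had no entry. Each window was searched on both strands for TCACNCCA, a core of the sterol response element bound by SREBP, for CCAAT, the box bound by NF-Y, for the GC box GGGCGG bound by Sp1, and for the E-box CACGTG. An exact match to the sterol response core was found in Hmgcs1 alone, at positions -137 to -130 from the start, and in 4.36% of all 32851 promoters. Variants of this pattern were not searched, so a window without a match may still hold a sterol response element. CCAAT was found in 5 of 5 windows and in 37.4% of all promoters, GGGCGG in 5 of 5 and in 35.7%, and CACGTG in 0 of 5 and in 7.15%. No overlap was seen between the CCAAT boxes and the sterol response core. The 250 bases before the start are printed for Mvd and Lss, whose levels were much alike over the libraries, for Cyp51, whose levels were less like theirs, and for Hmgcs1, which held the sterol response core. Capitals mark CCAAT, or ATTGG on the other strand, and TCACCCCA.
Mvd, chr8:122443423-122443672, minus strand: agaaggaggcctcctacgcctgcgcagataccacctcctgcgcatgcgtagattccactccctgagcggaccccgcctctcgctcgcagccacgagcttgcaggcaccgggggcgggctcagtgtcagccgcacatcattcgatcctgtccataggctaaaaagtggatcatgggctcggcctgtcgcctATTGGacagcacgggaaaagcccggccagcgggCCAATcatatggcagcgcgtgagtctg
Lss, chr10:76531355-76531604, plus strand: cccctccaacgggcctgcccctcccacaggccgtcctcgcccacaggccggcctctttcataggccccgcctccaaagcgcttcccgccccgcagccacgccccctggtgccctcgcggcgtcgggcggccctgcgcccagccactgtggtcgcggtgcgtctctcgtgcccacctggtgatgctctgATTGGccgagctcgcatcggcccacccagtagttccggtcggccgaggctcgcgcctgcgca
Cyp51, chr5:4104698-4104947, minus strand: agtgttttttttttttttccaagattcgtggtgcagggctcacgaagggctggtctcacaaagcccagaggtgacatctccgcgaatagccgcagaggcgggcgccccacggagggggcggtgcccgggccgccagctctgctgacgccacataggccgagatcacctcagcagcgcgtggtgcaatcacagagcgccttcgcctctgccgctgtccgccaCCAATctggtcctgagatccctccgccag
Hmgcs1, chr13:119690101-119690350, plus strand: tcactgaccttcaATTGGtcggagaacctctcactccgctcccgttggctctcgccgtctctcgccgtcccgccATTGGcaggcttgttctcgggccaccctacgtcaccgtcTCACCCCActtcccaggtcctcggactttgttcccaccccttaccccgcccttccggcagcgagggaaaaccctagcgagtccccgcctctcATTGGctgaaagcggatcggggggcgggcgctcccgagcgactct

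In mm9 the Hmgcs1 window matched in full at 2 places, both on unplaced sequences and none on an assembled chromosome, while the other 4 windows matched at 1 place each. A match is a description of these letters and not evidence of binding.

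Of the early steps, HMG-CoA synthase was measured least well. Hmgcs1 was listed at 0.067 FPKM in D0, 0.0455 in D3, 0.0323 in D6T+, 0.00869 in D6T-, 0.0141 in D9T+, 0.0873 in D9T-, 0.038 in D12S-, 0.0262 in D12S+, 0 in D16S-, 0.0812 in D16S+, 0.0124 in iPSCs and 0.0923 in mESCs. All 12 values lay under 0.1 FPKM, 9 of them outside the interval deposited with them, and no order of the libraries was read from them. Mvd, at chr8:124957496-124967322 on the minus strand of mm9, was at 60.1 FPKM in D0, 37.1 in D3, 51.8 in D6T+, 55.7 in D6T-, 56.7 in D9T+, 46.1 in D9T-, 45.4 in D12S-, 69.5 in D12S+, 42.3 in D16S-, 50.9 in D16S+, 59.9 in iPSCs and 100.0 in mESCs. Its level in mESCs stood above all others, with D12S+ next and D3 lowest. In bulk RNA, fewer cells that express a gene and less RNA per cell cannot be told apart.

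Idi1, at chr13:8884852-8891641 on the plus strand, was at 1.5 FPKM in D0, 2.17 in D3, 2.38 in D6T+, 3.09 in D6T-, 1.64 in D9T+, 2.18 in D9T-, 1.62 in D12S-, 1.43 in D12S+, 1.08 in D16S-, 1.48 in D16S+, 1.8 in iPSCs and 1.67 in mESCs. It was highest on day 6 in Thy-1- cells and lowest in D16S-. Fdps, at chr3:88897514-88905881 on the minus strand, had the highest FPKM of the 8 genes in every library. It was at 257 FPKM in D0, 152 in D3, 204 in D6T+, 197 in D6T-, 144 in D9T+, 138 in D9T-, 137 in D12S-, 162 in D12S+, 124 in D16S-, 166 in D16S+, 158 in iPSCs and 255 in mESCs. D0 and mESCs were nearly equal at the top and D16S- was lowest.

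Fdft1, at chr14:63763990-63796630 on the minus strand, was at 51.1 FPKM in D0, 41.5 in D3, 57.9 in D6T+, 86.7 in D6T-, 54.4 in D9T+, 98.3 in D9T-, 68.6 in D12S-, 65.6 in D12S+, 53.0 in D16S-, 57.5 in D16S+, 51.0 in iPSCs and 78.3 in mESCs. Its highest levels were in the Thy-1- cells of days 9 and 6, ahead of mESCs, a pattern that no other member reaching 10 FPKM showed. The locus given for Fdft1 also spans Ctsb, which encodes the lysosomal protease cathepsin B and overlaps it on the opposite strand. Ctsb ranged from 65.3 FPKM in mESCs to 714 in D0 and was lower in D6T- (111 FPKM) than in D6T+ (478 FPKM), the opposite order to Fdft1. The labels name a stranded library kit and the methods of the study a TruSeq kit without that word, the strand setting of the counting was not stated, and the part of Ctsb reads in Fdft1 was not tested.

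Of the sterol-specific steps after squalene, Sqle (chr15:59146632-59162747, plus strand) was at 43.2 FPKM in D0, 35.8 in D3, 53.8 in D6T+, 53.4 in D6T-, 42.2 in D9T+, 42.8 in D9T-, 35.9 in D12S-, 37.4 in D12S+, 31.8 in D16S-, 33.5 in D16S+, 44.8 in iPSCs and 55.8 in mESCs. The fractions of each day had nearly the same Sqle level, and the days differed more than the fractions did. Lss (chr10:75994333-76019883, plus strand) was at 40.1 FPKM in D0, 28.3 in D3, 34.9 in D6T+, 37.4 in D6T-, 28.1 in D9T+, 25.4 in D9T-, 25.6 in D12S-, 32.0 in D12S+, 20.0 in D16S-, 27.8 in D16S+, 36.0 in iPSCs and 66.3 in mESCs. The mESC level of Lss was 3.31 times that of D16S-, the widest ratio among the 6 members that reached 10 FPKM. Cyp51 (chr5:4081145-4104746, minus strand) was at 35.0 FPKM in D0, 24.0 in D3, 32.4 in D6T+, 29.8 in D6T-, 25.8 in D9T+, 29.8 in D9T-, 20.8 in D12S-, 22.3 in D12S+, 17.7 in D16S-, 23.6 in D16S+, 14.4 in iPSCs and 26.7 in mESCs. Hmgcs1 aside, it was the only member with its lowest level in iPSCs, and like Fdps it was highest in D0.

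**Figure D2:**
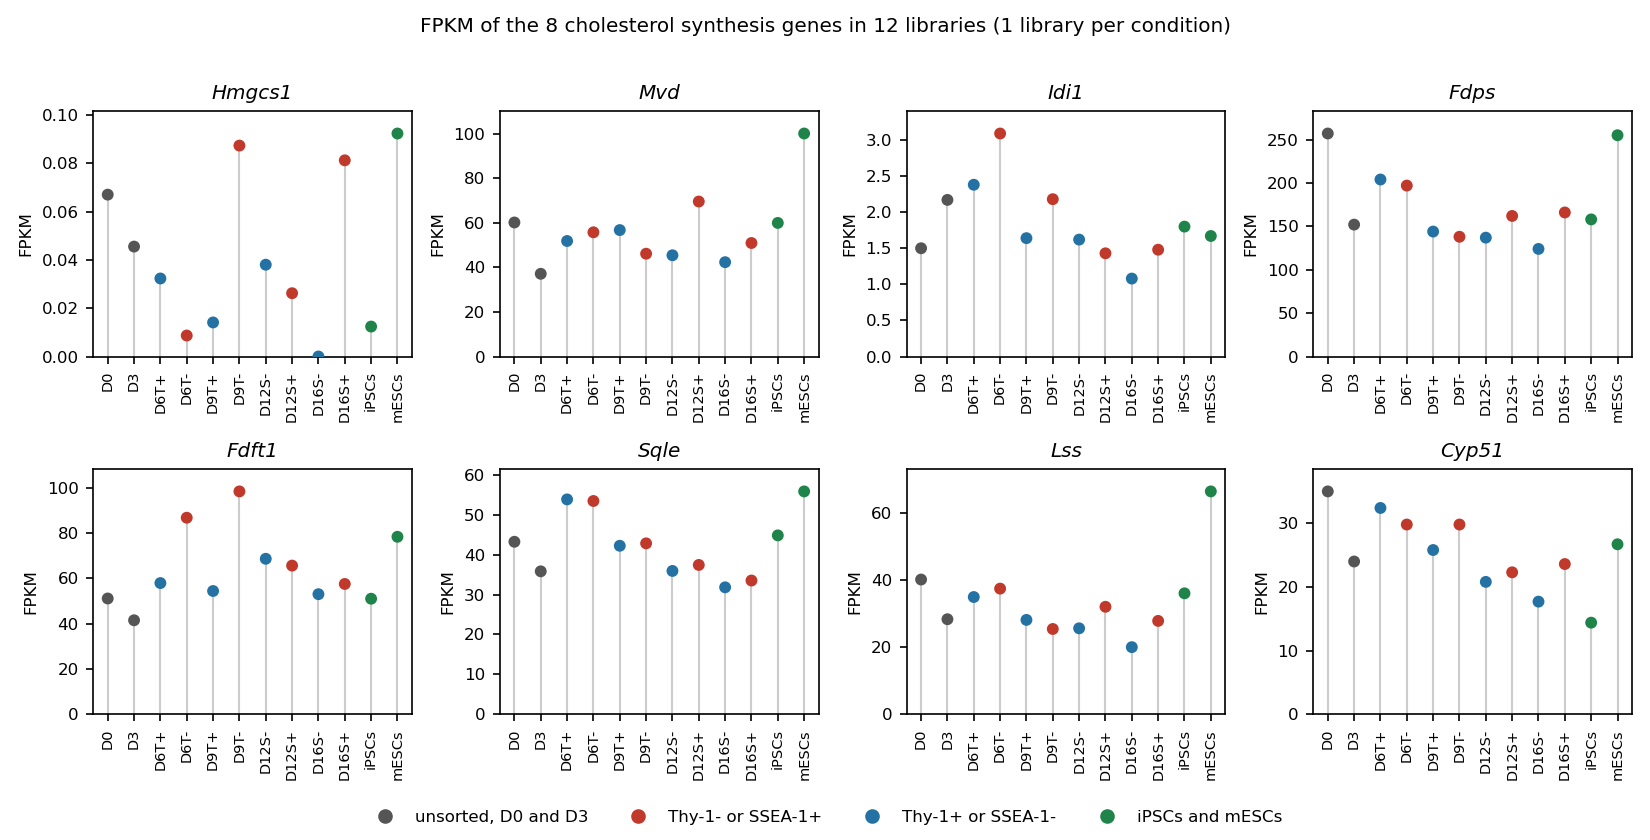
FPKM (vertical axes, from 0, scaled per gene) of each of the 8 genes in the 12 libraries, 1 point per library, coloured by sorted fraction. Of the 7 genes other than Hmgcs1, D16S- is the lowest library for 4 and mESCs the highest for 3, while Fdft1 peaks in D9T- at 98.3 FPKM.

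Across the 7 genes other than Hmgcs1, the highest library was mESCs for 3 (Mvd, Sqle and Lss), D0 for 2 (Fdps and Cyp51), D6T- for Idi1 and D9T- for Fdft1. The lowest was D16S- for 4 (Idi1, Fdps, Sqle and Lss), D3 for 2 (Mvd and Fdft1) and iPSCs for Cyp51. Neighbours in these orders could not be separated. The interval that cuffdiff deposited with each FPKM spanned a median of 96.0% of the value to either side in the 6 members (91.8% to 391%). It overlapped between the libraries of every comparison below for all 8 members. Overlap was near universal: of the 14178 genes that reached 1 FPKM, 140 had intervals apart in iPSCs against D0, the most of any comparison. The widest intervals were those of Fdft1, from 135% to 391% of the FPKM.

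Although identity markers differed by orders of magnitude between these libraries, the enzymes did not. The distance between the highest and the lowest library, on the log2(FPKM + 1) scale, was 0.79 for Sqle, 1.04 for Fdps, 1.22 for Fdft1 and for Cyp51, 1.41 for Mvd and 1.68 for Lss. The median of these 6 was 1.22, against 1.65 over all 8804 genes that reached 10 FPKM. None of the 6 had a range over 2, which 40.2% of those genes did. Sqle had a wider range than 8.92% of the 8804 genes and Lss than 50.9%. The range of Idi1, at 0.97, was held down by its low level on this scale.

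**Figure D3:**
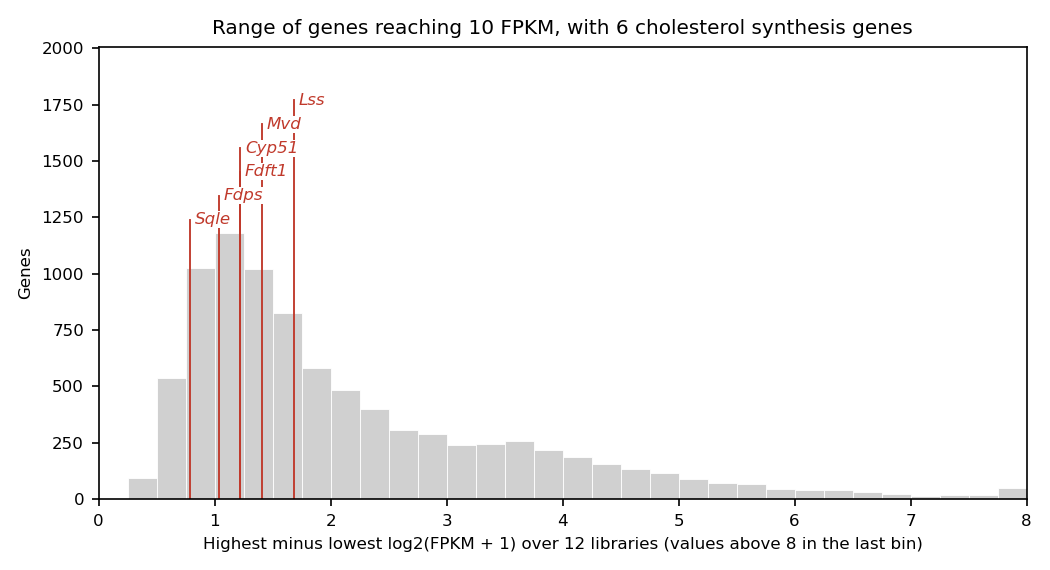
Number of genes (bars) by the distance between their highest and lowest log2(FPKM + 1) over 12 libraries, for the 8804 genes that reached 10 FPKM, with 6 cholesterol synthesis genes marked by red lines. The 6 lines lie between 0.79 and 1.68, and all but that of Lss lie below the median of the distribution, 1.65.

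How alike the members were was described by Pearson correlation of log2(FPKM + 1) over the 12 libraries, which share a time course, depth differences and the scaling of the table. Fdps and Lss were the most alike (r = 0.88), followed by Mvd and Lss (0.85), Sqle and Lss (0.78) and Fdps and Sqle (0.70). Fdft1 stood apart, with r = 0.10 with Fdps, 0.21 with Lss and 0.33 with the mean of the other 5. Cyp51 had r = 0.46 with the mean of the others. Averaged over the 8 genes after each was scaled to unit variance, the profile was highest in mESCs (1.32), D6T- (0.71), D0 (0.48) and D6T+ (0.47), and lowest in D16S- (-1.26), D3 (-0.50) and D12S- (-0.48). With Hmgcs1 and Idi1 left out, mESCs (1.55) remained highest and D16S- (-1.19) lowest, and D3 was at -0.81.

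The first days of OSKM induction were compared between D3 and D0. All 6 members that reached 10 FPKM were lower in D3. Their log2 differences were -0.76 for Fdps, -0.68 for Mvd, -0.52 for Cyp51, -0.49 for Lss, -0.29 for Fdft1 and -0.27 for Sqle. Idi1 was the exception with 0.34. The median of the 8 was -0.39 against -0.02 over all kept genes, those 14178 that reached 1 FPKM. None of the 8 was at least 2-fold apart, a threshold passed by 14.4% of the kept genes. Hmgcs1 (range over the libraries 0.13) and Idi1 (0.97) could not pass 2-fold on this scale in any comparison, and Hmgcs1 is not a kept gene. Counts past 2-fold out of 8, here and below, therefore rest on the 6 members that reached 10 FPKM. When every library was scaled to the same total FPKM, which takes D0 down relative to the others, the difference of Sqle came to 0.00 and the median of the 8 to -0.13, against 0.12 over all genes. Relative to the median of all genes, the median of the 6 was at -0.48 in the table as deposited and at -0.36 under the other scaling.

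By day 6 the levels of the 6 genes were higher again than in D3, in both fractions. Between the fractions of day 6, the median difference of the 8 members, D6T- minus D6T+, was 0.04, and 0 of 8 were 2-fold apart (12.4% of kept genes). Fdft1 differed most, with 86.7 FPKM in D6T- and 57.9 in D6T+ (0.58), and the others lay between -0.12 for Cyp51 and 0.27 for Idi1. On day 9 the median was 0.06 and again 0 of 8 were 2-fold apart (8.26% of kept genes). Fdft1 was once more the member furthest apart, at 98.3 FPKM in D9T- and 54.4 in D9T+ (0.84), while Mvd was lower in D9T- (-0.29). Under the same total FPKM the signs of Fdps and Sqle on day 6 and of Fdps on day 9 turned, all of them differences under 0.1 in size. The fractions differed strongly in fibroblast markers (summed FPKM of 417 in D6T- and 2670 in D6T+) and in 5 proliferation markers (207 and 127). The part of these cell differences in the Fdft1 result was not tested.

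On days 12 and 16, 5 of 6 and 6 of 6 members that reached 10 FPKM were higher in the SSEA-1+ fraction. On day 12 this included small differences, as for Sqle (0.06) and Cyp51 (0.1). In D12S+ against D12S- the median of the 8 was 0.08, against -0.01 over all kept genes, with 0 of 8 members 2-fold apart (7.81% of kept genes). Mvd was higher in D12S+, at 69.5 against 45.4 FPKM (0.60), followed by Lss (0.31) and Fdps (0.24), whereas Idi1 (-0.11) and Fdft1 (-0.06) were slightly lower. In D16S+ against D16S- the differences of the 6 and of Idi1 were above 0, also under the same total FPKM. They were 0.45 for Lss, 0.42 for Fdps, 0.40 for Cyp51, 0.26 for Mvd, 0.25 for Idi1, 0.11 for Fdft1 and 0.07 for Sqle. The median of the 8 was 0.26 against -0.02 over all kept genes, and 0 of 8 were 2-fold apart, where 27.0% of kept genes were. D16S- also had the lowest summed proliferation markers of the 12 libraries, 87.0 FPKM against 415 in D16S+, though D9T+ was nearly as low (88.9). Its summed epithelial markers were higher than in D16S+ (1330 against 689 FPKM), through Krt8 (543 against 149) and Krt18 (664 against 259). Cdh1 (44.6 against 130) and Epcam (74.6 against 150) were lower in D16S- than in D16S+. The part of these differences in the low enzyme levels of D16S- was not tested.

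Against the starting fibroblasts, the day 16 fractions were lower for most members, though for D16S+ not with the same total FPKM. In D16S- the differences from D0 were -1.04 for Fdps, -0.97 for Lss, -0.94 for Cyp51, -0.50 for Mvd and -0.43 for Sqle, while Fdft1 was at 0.05. Fdps was the 1 member of 8 that was at least 2-fold lower, beside 11.4% of kept genes lower and 24.3% apart in either direction. The median of the 8 was -0.46, and -0.17 with the same total FPKM, under which Fdps no longer passed 2-fold. In D16S+ against D0 the median was -0.30, with 0 of 8 members 2-fold apart against 40.9% of kept genes. This direction depended on the scaling, since with the same total FPKM the median came to 0.05 and Mvd, Idi1 and Sqle turned from lower to higher. When each library was scaled by the median ratio of its genes to their means, the median was -0.28. The factors of that scaling lay between 1.0 and 1.02, so it could change little and is no separate check. Relative to the median of all genes, the 6 members that reached 10 FPKM had a median of -0.49 in D16S+ as deposited. With the same total FPKM it was -0.38.

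In iPSCs against D0 the median of the 8 was -0.04 as deposited and 0.16 with the same total FPKM. Cyp51, at 14.4 against 35.0 FPKM (-1.22), was the 1 member of 8 past 2-fold, where 40.3% of kept genes were, and with the same total FPKM it no longer passed. Fdps was at -0.70, while Mvd (59.9 and 60.1 FPKM), Fdft1 (51.0 and 51.1) and Sqle (44.8 and 43.2) had almost the same level in both. In iPSCs against D16S+ the median was 0.06 and 0 of 8 were 2-fold apart (12.1% of kept genes). Cyp51 (-0.68) was lower in iPSCs, and Sqle (0.41), Lss (0.36) and Mvd (0.23) were higher.

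The labels place iPSCs and mESCs in the same medium. All 6 members that reached 10 FPKM were lower in iPSCs than in mESCs, also with the same total FPKM. The differences were -0.86 for Lss, -0.85 for Cyp51, -0.73 for Mvd, -0.68 for Fdps, -0.61 for Fdft1 and -0.31 for Sqle. Their median was -0.71 against -0.01 over all kept genes. None of the 8 passed 2-fold, which 14.2% of kept genes did in either direction. At 1.5-fold 5 of 8 passed, all of them lower in iPSCs, where 17.0% of kept genes were lower and 32.5% apart in either direction. Pluripotency markers summed to 3420 FPKM in iPSCs and 4020 in mESCs, mostly through Dppa5a (2440 and 2700). Zfp42 (58.6 and 173) and Tdgf1 (176 and 386) were lower in iPSCs. Nanog (143 and 137), Esrrb (165 and 195) and Utf1 (439 and 430) were closer. Epithelial markers were higher in sum in iPSCs (1480 and 250 FPKM). The part of these marker differences in the difference of the enzymes was not tested.

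**Figure D4:**
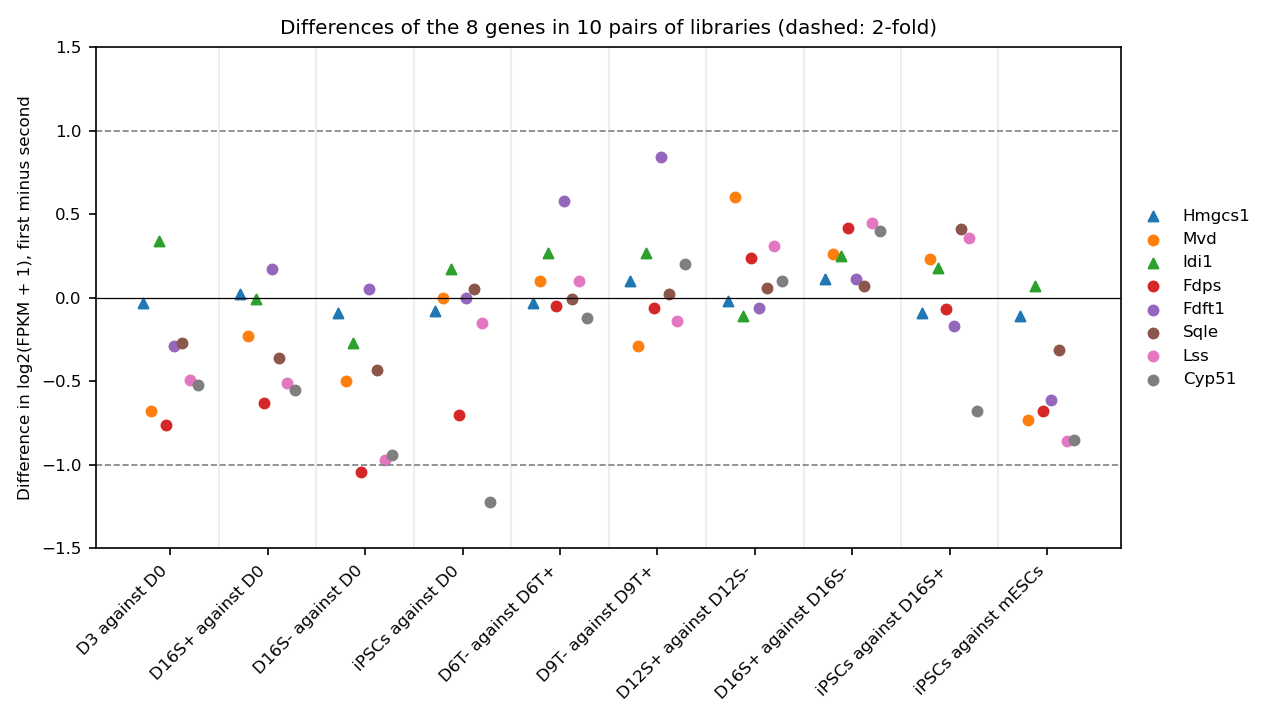
Difference in log2(FPKM + 1) of each of the 8 genes (colours, triangles for Hmgcs1 and Idi1) in 10 pairs of libraries, with dashed lines at 2-fold. The points outside the dashed lines are Fdps in D16S- against D0 (-1.04) and Cyp51 in iPSCs against D0 (-1.22), and the 6 circles of iPSCs against mESCs all lie below 0.

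Other genes of the pathway were then described by lists, whose counts past 2-fold stand beside 14.4% of kept genes in D3 against D0, 27.0% in D16S+ against D16S- and 40.9% in D16S+ against D0. Of 11 further synthesis genes, 0 were at least 2-fold higher and 1 lower in D3 than in D0, and 2 were higher and 0 lower in D16S+ than in D16S-. Their median range over the libraries was 1.46, and 2 of 11 had a range over 2.

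Among later sterol enzymes, Dhcr7, a late sterol reductase, ranged from 25.4 FPKM in iPSCs to 97.4 in mESCs and was at 59.8 in D6T-. Tm7sf2, another sterol reductase, was at 8.7 FPKM in D3 against 20.8 in D0, the lowest difference of its list there (-1.17). The widest ranges belonged to Hsd17b7, a sterol ketone reductase, from 27.1 FPKM in D0 to 4.5 in iPSCs, and to Lbr, a nuclear envelope protein with sterol reductase activity, from 9.48 FPKM in D0 to 49.8 in D16S+ and 50.5 in mESCs. Lbr was at 13.8 FPKM in D16S- (D16S+ minus D16S-, 1.78).

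The 7 SREBP regulators had 0 genes 2-fold apart in D3 against D0 and 1 lower gene in D16S+ against D16S-. Srebf2 stayed between 78.9 FPKM in D3 and 163 in mESCs, and Srebf1 between 28.8 in D16S+ and 64.0 in mESCs. Scap, the SREBP escort, was at 138 FPKM in D0, 79.2 in D3, 56.4 in D16S-, 23.8 in D16S+, 43.8 in iPSCs and 40.0 in mESCs, a difference of -2.49 between D16S+ and D0. Insig1, itself a target of SREBP, ranged from 15.0 FPKM in D16S- and 15.7 in iPSCs to 57.8 in mESCs, and 32.5% of its windows occurred elsewhere. Insig2 stayed between 3.48 and 9.27 FPKM and the protease gene Mbtps2 between 0.343 and 2.19.

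Of 6 uptake and transport genes, 0 were at least 2-fold higher and 1 lower in D3 against D0, 0 and 2 in D16S+ against D0, and 0 and 1 in D16S+ against D16S-. Lrp1, a lipoprotein receptor, was at 388 FPKM in D0 and 9.08 in iPSCs, and it had the lowest difference of its list in D3 against D0 (-1.75) and in D16S+ against D16S- (-2.42). The sterol carrier Stard4 stayed between 7.33 and 19.6 FPKM and Npc1, which exports lysosomal cholesterol, between 8.26 and 18.3.

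Of 7 efflux and esterification genes, several had wide ranges. In D3 against D0, 2 of 7 were at least 2-fold higher and 2 lower (14.4% of kept genes in either direction), and in D16S+ against D16S- 1 was higher and 2 lower (27.0%). Abca1, the cholesterol exporter, was at 1.1 FPKM in D0, 12.4 in D3, 34.4 in D12S-, 27.6 in D16S-, 3.72 in D16S+ and 0.434 in mESCs. Apoe, a lipoprotein component, was at 9.21 FPKM in D0, 121 in D16S-, 519 in D12S+, 738 in D16S+ and 884 in mESCs. Mylip, a ubiquitin ligase, was at 3.72 FPKM in D0 and 1.12 in D3. Of 9 fatty acid synthesis genes, 0 were higher and 1 lower in D3 against D0 (Fads1, -1.12), and 1 was higher (Elovl6, 1.98) and 1 lower (Scd1, -1.23) in D16S+ against D16S-. Of 7 genes of other isoprenoid branches, none was 2-fold apart in D3 against D0, where Pdss1 (0.68) was highest and Dhdds (-0.36) lowest, and 2 were higher in D16S+ against D16S-, led by the farnesyltransferase subunit Fnta (1.54).

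**Figure D5:**
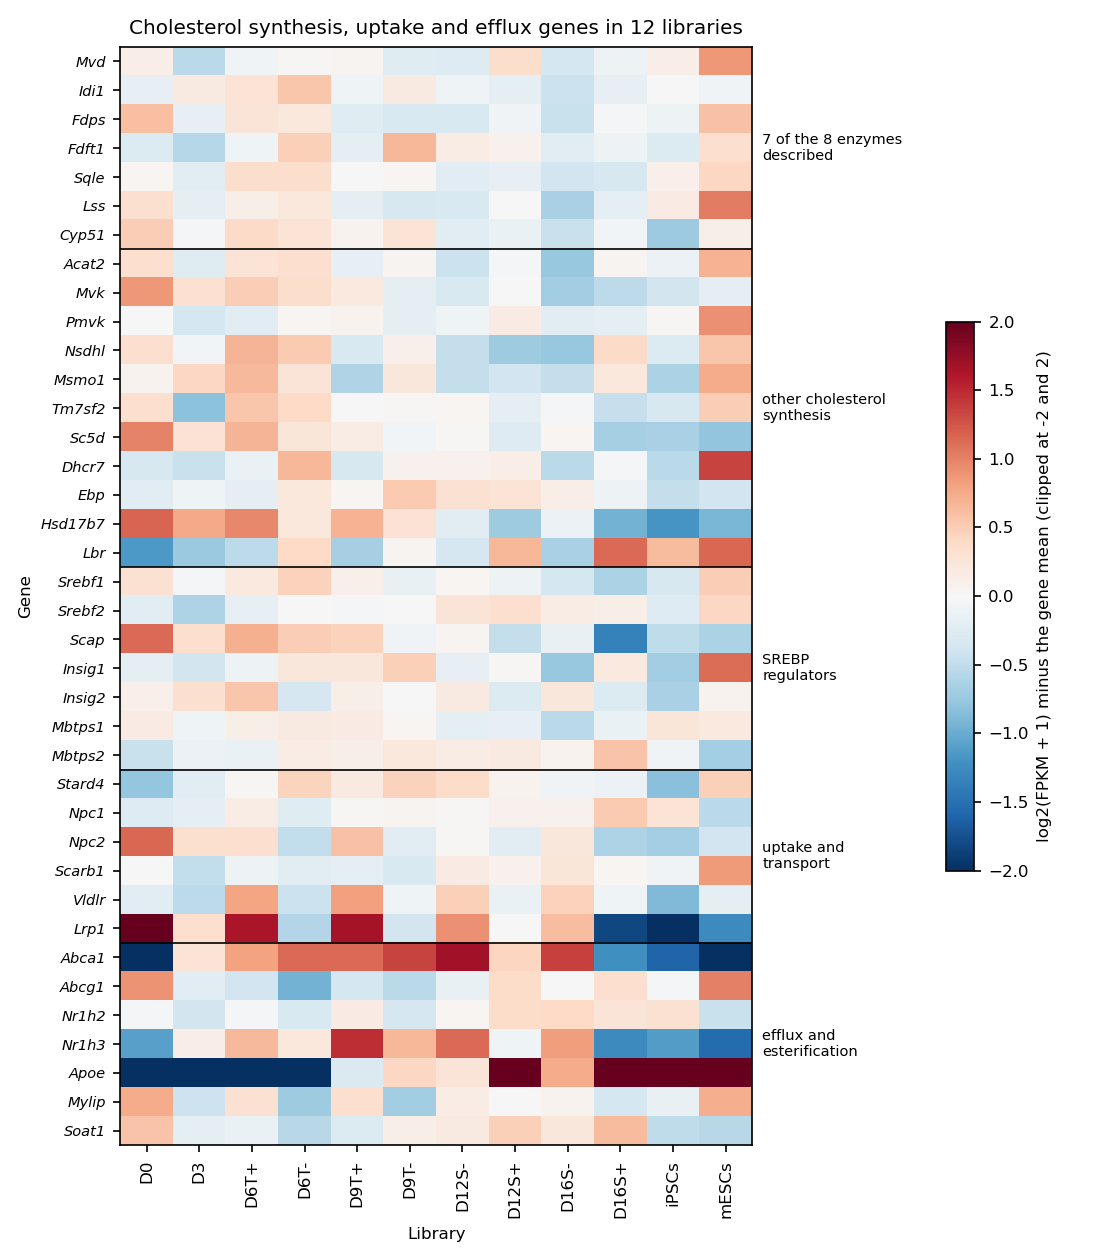
Heat map of log2(FPKM + 1) minus the gene's mean over the 12 libraries (colour, clipped at -2 and 2) for 7 of the 8 genes (Hmgcs1 left out for its low level) and 4 lists of related genes. The upper rows are pale, while Lrp1, Abca1 and Apoe reach the ends of the scale.

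The genes whose profile was most like the mean of the 8 members were sought among 7145 genes that reached 10 FPKM and had a range of at least 1. The closest was Acat2 (r = 0.97 over 12 libraries), the cytosolic thiolase of the first step of the pathway, at 51.5 FPKM in mESCs, 39.9 in D0 and 18.1 in D16S-. It was also the closest by Spearman correlation (0.97) and with the 6 members alone (0.95), and 37.3% of its windows occurred elsewhere, in its neighbouring paralog Acat3. Next came Nutf2 (0.91), Cars2 and Ldlrad3 (0.87), Cmc2 and Ube2s (0.84), and Ppa2, Atp5c1, Atp5o and Haus8 (0.82). The mean of the 8 gives Hmgcs1, under 0.1 FPKM throughout, the same weight as the others. With the 6 members alone, Cmc2, Ppa2, Atp5c1 and Atp5o were no longer among the 10 closest. The libraries share a time course, so likeness of this kind is a description only.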

How the data were processed

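The authors prepared TruSeq mRNA libraries (a stranded kit per the labels, not called stranded in the methods of the study), mapped reads to mm9 with STAR, removed reads with more than 2 mismatches or more than 1 locus, and estimated expression with cuffdiff. The deposited values are FPKM each with the 2 ends of its cuffdiff interval. Versions, annotation, read length and library scaling are not given in the sources used here. Groups came from the titles in the labels, and table columns were matched to them through the day and the positive or negative fraction in their names. A further 12 columns of status words were not used.

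Absolute depth is unknown from these values. Relative depth was the most common ratio of values under 0.5 FPKM. Differences were taken on log2(FPKM + 1) over 14178 genes with at least 1 FPKM in at least 1 library, which understates low genes, and calls are at least 2-fold. No test was run, since there was 1 library per condition. The intervals of cuffdiff are modelled and hold no measured biological variation. Sequence windows were searched in NCBIM37 (mm9) on both strands, using GENCODE M1 transcripts or, for Hmgcs1, the table's locus. A listed symbol, Sc4mol, was present under its newer name Msmo1. Scripts used Python 3.11.15, numpy 2.4.6, pandas 2.3.3 and pysam 0.24.0, and were tested on simulated data. The members and lists were chosen with earlier results of these data known. Named genes are the 8 members, 7 further pathway genes, the highest and lowest gene of each list in D3 against D0 and in D16S+ against D16S-, and the 10 genes most like the mean profile. A further 4 listed genes are not reported here and were left out of the lists' counts. Ctsb, the 5 leukocyte, 4 epithelial and 6 pluripotency markers, Acat3 and the pseudogenes, and the other genes given for their range, were named after their values were seen. Alternatives were 2 other scalings, to the same total FPKM and by the median ratio of genes to their geometric mean over the libraries. Others were a pseudocount of 0.1, thresholds of 1.5-fold and 4-fold, other filters and Spearman correlation. Chosen after seeing the data were the 6 members with at least 10 FPKM and windows of 100 bases.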

Additional observations from a re-analysis of the deposited data

Results flagged for a closer look

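The difference of Mvd between sorted fractions had opposite signs on neighbouring days. It was 0.60 in D12S+ against D12S- (69.5 and 45.4 FPKM) and -0.29 in D9T- against D9T+ (46.1 and 56.7 FPKM), on the log2(FPKM + 1) scale. Cells were sorted by Thy-1 on day 9 and by SSEA-1 on day 12, each value is from 1 library per fraction, and whether the 2 days differ was not tested.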

How the results depend on the processing

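Of 131 values recomputed under alternatives, 99 stayed within the margin (0.25 on the log2 scale for medians, 1.5 times for counts and shares of genes, and the 95% binomial interval for shares of windows), 31 moved and 1, with a median of at least 0.1 in size, changed direction. A further 3 medians under 0.1 in size changed sign: -0.04 became 0.16 in iPSCs against D0 and 0.06 became -0.02 in iPSCs against D16S+ with the same total FPKM, and 0.06 became -0.02 in D9T- against D9T+ over the 6 members. With windows of 100 bases, chosen after seeing the data, the share found elsewhere moved for Fdps (26.4% in place of 63.2%), Fdft1 (8.22% in place of 22.2%), Idi1 (80.3% in place of 84.6%) and Cyp51 (0 in place of 0.515%). Neighbouring windows overlap and all were counted, so the binomial interval measures no sampling spread here and serves only as a cut-off. With the same total FPKM in every library, the median difference of the 8 members became 0.05 in D16S+ against D0 (in place of -0.30), -0.13 in D3 against D0 and -0.17 in D16S- against D0, and 0 members passed 2-fold in D16S- against D0 and in iPSCs against D0. Among kept genes past 2-fold, the share that was higher went from 39.9% to 56.5% in D3 against D0, from 48.9% to 65.6% in D16S+ against D0, from 52.9% to 68.2% in D16S- against D0 and from 36.1% to 22.9% in iPSCs against D16S+. Counts of members past 1.5-fold follow, with the share of kept genes past it in either direction. They were 5 in iPSCs against mESCs (32.5%) and 3 in D16S- against D0 (44.3%). In D3 against D0 (31.4%) and iPSCs against D0 (60.6%) they were 2. Single members passed in D16S+ against D0 (62.2%), D9T- against D9T+ (22.8%), D12S+ against D12S- (23.0%) and iPSCs against D16S+ (31.1%). None passed in D6T- against D6T+ (28.9%) or D16S+ against D16S- (48.4%). At 4-fold no member passed in any comparison, where between 0.987% and 15.4% of kept genes did. Over the 6 members with at least 10 FPKM the median in D16S- against D0 was -0.72. Scaling by the median ratio changed little, with factors from 1.0 in D16S+ to 1.02 in D9T-. With factors so near 1, all 10 medians and all 10 counts of members past 2-fold could hardly leave the margin, and none did. They are among the 99 values that stayed within it. Without a filter, over the whole table, between 4.6% and 24.0% of genes passed 2-fold. Of the 10 genes most like the mean profile, 2 were also found by Spearman correlation, 8 with a minimum of 1 FPKM and 6 with the 6-member profile. No paired analysis was possible because each condition had 1 library and the labels give no replicate numbers.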
